A study of Mus musculus with 6 samples.

Results

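S100 proteins are small calcium sensors of the EF-hand type that work as dimers. Binding of calcium opens a surface through which most of them dock onto target proteins such as annexins, cytoskeletal subunits and enzymes, and several are also released and act on receptors such as RAGE (*Ager*) and TLR4. In the brain, S100B is a classical astrocyte protein, S100A10 is used as a marker of reactive astrocytes, and the S100A8 and S100A9 pair is abundant in neutrophils and inflammatory monocytes.

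The RNA of hippocampal astrocytes was examined for 10 S100 genes, namely *S100a1*, *S100a4*, *S100a6*, *S100a8*, *S100a9*, *S100a10*, *S100a11*, *S100a13*, *S100a16* and *S100b*. They were found by an exact match of the gene name, and all 10 had a row among the 24421 rows of the deposited tables. Another 7 S100 genes with a row are given for comparison.

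The libraries came from *Siglech* dtr/dtr mice on a C57BL/6 background, which carry the diphtheria toxin receptor at the microglial gene *Siglech*. In these animals diphtheria toxin (DT) ablates microglia. The PBS group (3 libraries) and the DT group (3 libraries, 50 μg/kg) both had this genotype, so PBS-injected mice of the same genotype were the controls and no mouse without the receptor was among these samples. Cells were taken 2 days after the intraperitoneal injection. Each library was made from the pooled hippocampi of 2 mice and the pools came from independent experiments. Cells bearing CD11b were first depleted with beads, and astrocytes were then captured through ACSA-2. The mice were adult males.

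The libraries held 21704891 to 32933975 reads assigned to genes. As checks of the labels, *Gfap*, the astrocyte intermediate filament gene, lay between 931 and 1146 CPM after PBS and between 3518 and 4214 CPM after DT. *Siglech* was already low after PBS, at 0.967 to 2.14 CPM, and was without reads after DT. The 10 astrocyte markers were at a median of 1521 TPM after PBS. None of them was called. Their summed level was 61233 to 65833 CPM after PBS and 61427 to 68166 CPM after DT, so these ranges overlapped. In all, 15137 genes with a mean of at least 0.5 CPM were tested with limma as log2(CPM + 0.1), with Benjamini-Hochberg adjustment over all of them. Of these genes 0.555% were called higher and 0.159% lower after DT at an adjusted p-value under 0.05. A fold change on this scale understates the change of a gene with few reads.

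Of the 10 S100 genes, 9 lie on chromosome 3 of mm10 (GENCODE M21 coordinates), in a block of 7 from 90511034 to 90695721 and a pair, *S100a11* and *S100a10*, from 93520488 to 93564643. *S100b* lies alone on the plus strand of chromosome 10, from 76253853 to 76261159. *S100a1* (minus strand, 90511034 to 90514392) and *S100a13* (plus strand, 90514435 to 90524581) stand head to head. *S100a6* spans 90612882 to 90624181, *S100a4* 90603771 to 90606045 and *S100a16* 90537254 to 90543151, all on the plus strand.

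Stretches before the annotated starts of some of these genes are shown as examples. The first is the whole interval of 42 bases between *S100a1* and *S100a13*. The second lies before *S100a6*, the S100 gene that was called, and the third before *S100a11*. All were read on the plus strand from the RefSeq promoter table (GRCm38.p6, the assembly of mm10), at chr3:90514393-90514434, chr3:90612644-90612881 and chr3:93520246-93520487. Capitals mark matches, on either strand, to the letters TGANTCA (the AP-1 motif) and GGGCGG (the GC box), which did not overlap each other.
Between S100a1 and S100a13: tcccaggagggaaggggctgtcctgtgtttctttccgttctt
Before S100a6: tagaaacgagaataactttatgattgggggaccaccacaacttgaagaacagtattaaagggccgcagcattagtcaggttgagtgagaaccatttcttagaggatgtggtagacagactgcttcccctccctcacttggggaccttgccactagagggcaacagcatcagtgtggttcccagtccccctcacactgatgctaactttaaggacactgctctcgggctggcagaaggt
Before S100a11: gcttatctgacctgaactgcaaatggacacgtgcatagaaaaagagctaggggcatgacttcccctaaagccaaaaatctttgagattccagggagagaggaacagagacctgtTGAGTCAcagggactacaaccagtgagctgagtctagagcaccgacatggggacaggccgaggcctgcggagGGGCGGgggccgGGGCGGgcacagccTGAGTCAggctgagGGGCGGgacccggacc

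The stretch before *S100a11* held 2 AP-1 matches and 3 GC boxes, and neither set of letters occurred in the other stretches. The promoter table, with windows from 250 bases before to 50 bases after each start, had 9 of the 10 genes. It did not list *S100a10*. In these windows AP-1 letters were found for *S100a11* and *S100a16* only, and no window held TTCNNNGAA, the letters of a STAT site. Of all 32851 windows in the table, 7.81% held the AP-1 letters, 8.30% the STAT letters and 35.7% the GC box. A TATA box, TATAAA, was found upstream of *S100a4* and *S100a8* and right at the start of *S100a9*. Such a box occurred in 13.6% of all windows.

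In the PBS libraries the S100 genes covered a wide range of levels, and the order was set per length, in TPM. *S100a1*, a regulator of calcium cycling, was at the top with 581, 593 and 721 TPM. *S100b* followed with 389, 397 and 392 TPM, then *S100a13*, a carrier in the release of FGF1 and interleukin 1 alpha, with 267, 266 and 282 TPM. The ranges of these 3 genes did not overlap.

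*S100a16*, a widely expressed member, had 181, 184 and 212 TPM after PBS. *S100a10*, the light chain of the annexin A2 complex, had 141, 182 and 177 TPM, so its range overlapped that of *S100a16*. Below them *S100a6* (calcyclin) had 57.7, 62.3 and 62.1 TPM and *S100a11*, a partner of annexin A1, had 21.9, 31.0 and 32.2 TPM. *S100a4*, which binds non-muscle myosin, was the lowest gene with reads, at 8.41, 8.22 and 5.76 TPM.

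After DT the order of mean levels was the same apart from *S100a10* and *S100a16*, which changed places at means of 271 and 257 TPM with overlapping ranges. In CPM after PBS, *S100b* stood at percentile 95.5 of the genes tested and *S100a1* at percentile 90.8. *S100a6* was at percentile 42.5 and *S100a4* at percentile 8.11, with 22 to 75 reads per library.

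**Figure D1:**
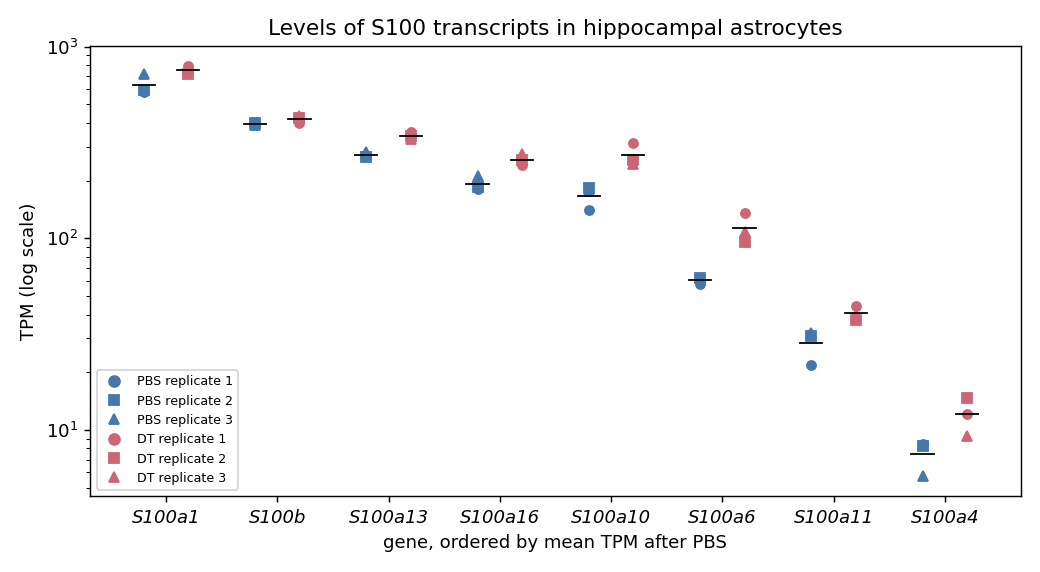
Level of each S100 gene with reads, in TPM on a log axis, with 1 point per library, the treatment by colour, the replicate by shape and a black line at each group mean. Levels run from 5.76 TPM for *S100a4* in a PBS library to 788 TPM for *S100a1* in a DT library, and *S100a10* and *S100a16* overlap in both groups.

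*S100a8* and *S100a9* encode the subunits of calprotectin. Both were listed at 0 in each of the 6 libraries, which allows up to 3 reads per library, or 0.0904 to 0.138 CPM. These limits cover counting error only. Of 9 neutrophil markers listed, 8 had a row. Of these, 6 were also without a read in all libraries and none reached the level for testing. The summed neutrophil level was at most 0.046 CPM after PBS and at most 0.087 CPM after DT. Calprotectin transcripts were therefore not detectable at this depth in either group.

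The comparison of DT with PBS asks which transcripts of astrocytes differ once microglia are being lost. The 8 S100 genes with reads all passed the filter on the PBS libraries alone, so none was tested only through its level after DT. Their log2 changes were all above 0, from 0.08 to 0.87, where 48.7% of all genes tested were above 0. Their median was 0.45, beside -0.01 over all genes tested. Of the 8 genes, 1 passed the threshold as higher (0.555% of all genes tested) and 0 as lower. At an unadjusted p-value under 0.05, 6 were higher and 0 lower, beside 5.91% and 4.51% of all genes tested. In 7 of the 8, the lowest DT value was above the highest PBS value, which held for 8.75% of all genes tested.

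*S100a6* was the S100 gene called higher. Its protein binds the adaptor CacyBP and annexin A11. It was at 14.5, 15.0 and 15.3 CPM in the PBS libraries and at 33.9, 23.0 and 26.2 CPM in the DT libraries. The PBS values lay close together, and DT replicate 1 was the highest of the DT values. The means were 14.9 ± 0.41 CPM after PBS and 27.7 ± 5.58 CPM after DT (SD, n = 3), from 314 to 776 reads per library. The log2 change was 0.87 with an SE of 0.14 (limma adjusted p = 0.0350), or 1.83-fold with a 95% interval of 1.46 to 2.28. Without DT replicate 1 the log2 change was 0.72, and the adjusted p-value was then 0.0624, while over all alternatives it ranged from 5.34e-06 to 0.139. The call was made in 9 of 17 alternatives. Leaving out any library other than DT replicate 2 ended it. So did testing with no filter, with no variance trend or with a block for the replicate number (limma adjusted p = 0.0505).

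*S100a10* was second. Its protein, p11, joins annexin A2 at the membrane and has, as an exception in the family, lost calcium binding. The PBS libraries had 31.8, 39.8 and 39.3 CPM and the DT libraries 70.8, 55.4 and 53.2 CPM, with no overlap and again the highest value in DT replicate 1. The log2 change of 0.69 with an SE of 0.13 (95% interval 0.39 to 0.98) did not pass the threshold (limma adjusted p = 0.0676). It passed with edgeR's exact test and DESeq2 only, within a range of adjusted p-values from 0.000106 to 0.240 over 17 alternatives.

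*S100a16* had 66.9, 65.7 and 76.6 CPM after PBS and 88.1, 90.0 and 98.3 CPM after DT. Here DT replicate 3 was the highest. The log2 change was 0.40 with an SE of 0.08 (95% interval 0.22 to 0.59, limma adjusted p = 0.0884). It was called in 3 of 17 alternatives, within a range of adjusted p-values from 0.00303 to 0.284. These were edgeR's exact test, DESeq2 and the block for the replicate number (limma adjusted p = 0.0384), with which *S100a6* was not called.

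*S100a13* had 66.5, 63.9 and 68.9 CPM after PBS and 88.7, 81.0 and 79.1 CPM after DT. The groups did not overlap, with a log2 change of 0.32 with an SE of 0.07 (95% interval 0.16 to 0.48, limma adjusted p = 0.119). It was called in 1 of 17 alternatives, DESeq2. *S100a1*, its head-to-head neighbour, had 124, 122 and 151 CPM after PBS and 168, 148 and 159 CPM after DT. PBS replicate 3 lay above DT replicate 2, so these groups overlapped. Its log2 change was 0.26 with an SE of 0.09 (limma adjusted p = 0.386). The TPM ratio of *S100a1* to *S100a13* was 2.18, 2.23 and 2.56 after PBS and 2.20, 2.12 and 2.34 after DT (exact permutation test, two-sided p = 0.6).

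*S100a11* and *S100a4* were read less often. *S100a11* had 3.87, 5.28 and 5.56 CPM after PBS and 7.73, 6.30 and 6.76 CPM after DT, a log2 change of 0.50 with an SE of 0.19 (limma adjusted p = 0.398). *S100a4* had 1.47, 1.39 and 1.01 CPM after PBS and 2.10, 2.44 and 1.57 CPM after DT, a log2 change of 0.61 with a 95% interval of -0.03 to 1.26 (limma adjusted p = 0.508). Neither pair of groups overlapped, and the lowest DT value of *S100a4* was close to the highest PBS value. An annotated transcript, *Gm42674*, overlaps *S100a4* on the same strand and reads could be split between them.

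*S100b* differed least. It had 225, 221 and 222 CPM after PBS and 229, 235 and 243 CPM after DT. The groups did not overlap, but the distance between them was small. The log2 change was 0.08 with an SE of 0.05 (limma adjusted p = 0.647) and its 95% interval, -0.04 to 0.20, corresponds to 0.973-fold to 1.15-fold. With 4834 to 7344 reads per library this gene was the most often read of the 10. The TPM ratio of *S100a6* to *S100b* was 0.149, 0.157 and 0.158 after PBS and 0.342, 0.226 and 0.249 after DT. The ratio was higher in all DT libraries (two-sided exact permutation test, p = 0.1, the lowest p possible with 3 libraries a group).

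**Figure D2:**
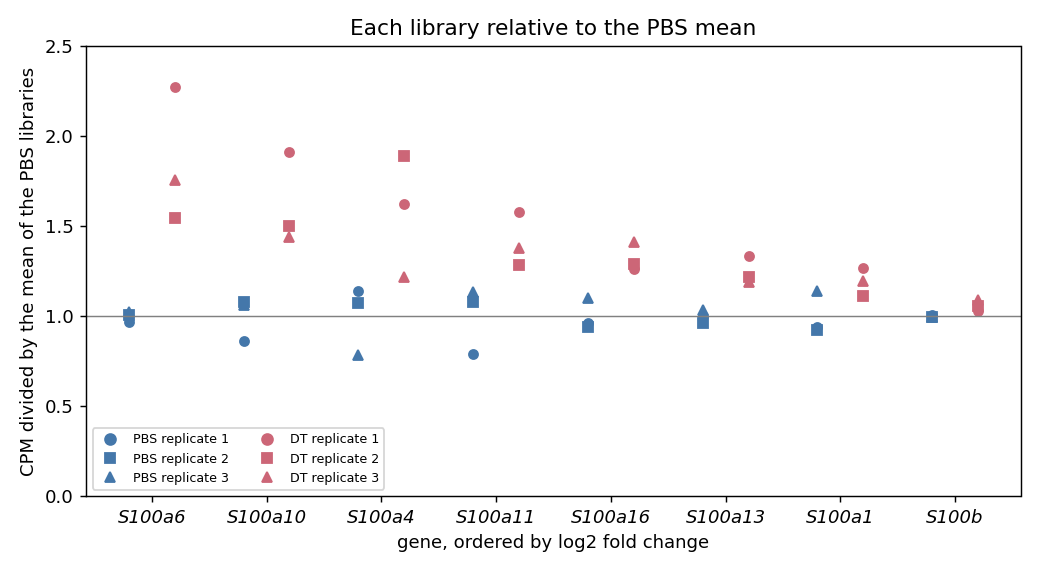
CPM of each S100 gene in each library, divided by its mean over the 3 PBS libraries, with treatment by colour and replicate by shape. DT replicate 1 is the highest library for *S100a6* (33.9 CPM) and *S100a10* (70.8 CPM) and not for *S100a16*, and all *S100b* values lie close to 1.

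**Figure D3:**
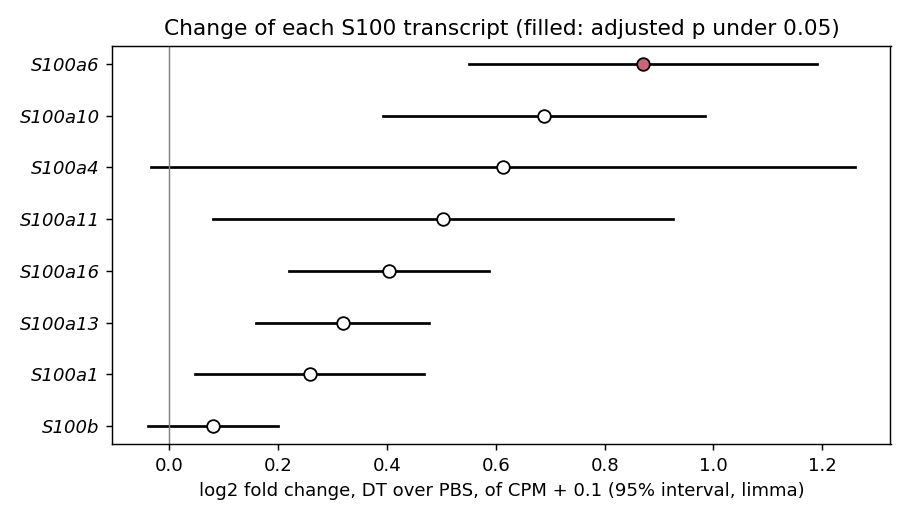
Log2 fold change (DT over PBS, of CPM + 0.1) of the 8 S100 genes with reads, with 95% intervals from limma and a filled point for the adjusted p-value under 0.05. Estimates run from 0.08 for *S100b* to 0.87 for *S100a6*, and the intervals of *S100a4* and *S100b* include 0.

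Summed over the 10 genes, S100 transcripts made up 1647, 1724 and 1885 TPM after PBS and 2291, 2147 and 2206 TPM after DT. The means were 1752 ± 121 and 2215 ± 72.3 TPM (SD, n = 3), a ratio of 1.26 (exact permutation test, two-sided p = 0.1). Of the difference in means, *S100a1* gave 27.5%, *S100a10* 22.6%, *S100a13* 15.2%, *S100a16* 13.9%, *S100a6* 11.4% and *S100b* 5.73%. *S100a1*, the highest gene, thus had the largest difference in mean TPM although its fold change was among the lowest. It was not called and its CPM values overlapped between the groups, and these percentages were not tested.

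The share of *S100b* in the sum was 22.5% ± 1.48 after PBS and 19.0% ± 1.38 after DT (SD, n = 3). The share of *S100a10* was 9.51% ± 1.02 after PBS and 12.2% ± 1.38 after DT, and that of *S100a6* was 3.47% ± 0.16 and 5.11% ± 0.75. In these 3 genes the libraries of the groups did not overlap (exact permutation tests, two-sided p = 0.1 each and adjusted p = 0.267 over 8 genes). The shares of *S100a13* overlapped, at 15.5% in both groups.

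**Figure D4:**
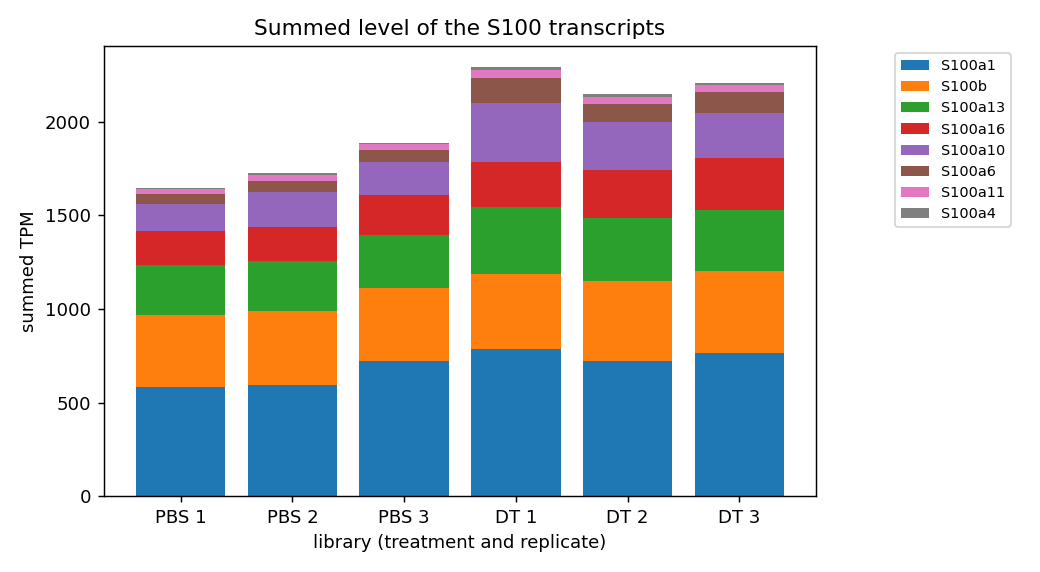
Summed TPM of the S100 genes in each library, as bars from 0 split by gene. The 3 DT bars reach 2147 to 2291 TPM and the 3 PBS bars 1647 to 1885 TPM, and the *S100b* part is of similar height in all.

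Among the other S100 genes of the tables, *S100a3* had 3 to 20 reads per library and lay under the filter, with 0.24 ± 0.16 CPM after PBS and 0.63 ± 0.26 CPM after DT (SD, n = 3). *S100a7a* had 9 to 18 reads and passed the filter only through its DT libraries, at a log2 change of 0.38 with an SE of 0.41 (limma adjusted p = 0.798). *S100a14* had 14 reads in DT replicate 2 and at most 3 in any other library. *S100g* had at most 9 reads in a library, and *S100a2*, *S100a5* and *S100z* were listed at 0 in all. Within 200 kb of the block on chromosome 3, 7 genes outside the family were tested, all of them on the *S100a1* side. Of these 2 had a log2 change above 0, their median was -0.04 and 0 were called.

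A list of 31 genes for binding partners, receptors and targets of S100 proteins was examined next, all of them tested. Of these, 1 was called higher and 0 lower (0.555% and 0.159% of all genes tested), and the median log2 change was 0.02. The called gene was *Gfap*, whose filaments S100B and S100A1 bind, with a log2 change of 1.93 with an SE of 0.10 (limma adjusted p = 8.20e-05). The annexin genes were not called. *Anxa2*, the partner of *S100a10*, had 23.5, 23.2 and 26.0 CPM after PBS and 29.7, 30.5 and 41.6 CPM after DT, with no overlap and a log2 change of 0.47 (limma adjusted p = 0.268).

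*Anxa11* had a log2 change of 0.50 (limma adjusted p = 0.365), *Anxa1*, the partner of *S100a11*, 0.41 (adjusted p = 0.543) and *Anxa6* -0.04 (adjusted p = 0.886). The highest *Anxa2* and *Anxa1* values were in DT replicate 3, while *S100a10* and *S100a11* were highest in DT replicate 1. The TPM ratio of *S100a10* to *Anxa2* was 2.86, 3.63 and 3.20 after PBS and 5.04, 3.85 and 2.70 after DT (exact permutation test, two-sided p = 0.5). The ratio of *S100a11* to *Anxa1* was 0.903, 1.21 and 1.43 after PBS and 1.55, 1.46 and 0.846 after DT (exact permutation test, two-sided p = 0.7). Neither ratio separated the groups.

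The receptor genes were read at very different depths. *Ager* (RAGE) was at 3.60 CPM after PBS and 4.03 CPM after DT, a log2 change of 0.10 with an SE of 0.33 (limma adjusted p = 0.948). *Tlr4* was at 6.83 and 8.59 CPM, a log2 change of 0.34 (adjusted p = 0.518), and its groups did not overlap. *Bsg*, which encodes basigin, a receptor of S100A9, was at 1125 and 956 CPM, a log2 change of -0.23 (adjusted p = 0.556). *Fgfr1* was at 553 and 549 CPM, a log2 change of -0.01 (adjusted p = 0.975). *Cacybp*, the S100A6-binding adaptor, had a log2 change of 0.11 (limma adjusted p = 0.642).

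EF-hand genes outside the family were set beside them, among them calbindins and neuronal calcium sensors. Of 33 genes listed 32 were tested, and *Rcvrn* was without a read. Their median log2 change was -0.0034 and 0 were called in limma in either direction. At an unadjusted p-value under 0.05, 5 were higher and 1 lower (5.91% and 4.51% of all genes tested). DESeq2 called 1 higher (*Calml4*) and 1 lower (*Efhd2*), where it called 1.5% of all genes higher and 0.648% lower. *Efhd2* had a log2 change of -0.30 with an SE of 0.06 (limma adjusted p = 0.0825).

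By profile over the 6 libraries, 11791 genes with a mean of at least 5 CPM were compared with *S100a6*, each centred on its own mean log2 level. The nearest was *Tmem176a*, a membrane protein gene, at a root mean square distance of 0.087 (log2 units), against a median of 0.48 over all genes. It had 18.8, 20.0 and 21.7 CPM after PBS and 40.2, 32.6 and 34.5 CPM after DT. *Chil1*, the chitinase-like gene of reactive astrocytes, followed at 0.105 and *Ctsc*, a cathepsin gene, at 0.112. In all 3, as in *S100a6*, DT replicate 1 was the highest library. The 3 were chosen for profiles like that of *S100a6*, so this and a similar log2 change follow in large part from the choice. The log2 changes were 0.82 for *Tmem176a* (limma adjusted p = 0.0119), 0.80 for *Chil1* (adjusted p = 0.0120) and 0.75 for *Ctsc* (adjusted p = 0.215).

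Several S100 genes are also expressed outside astrocytes, and in bulk libraries fewer cells of a type and less RNA per cell cannot be told apart. Summed markers of border-associated macrophages (8 genes) were at 20.0 to 29.9 CPM after PBS and 68.6 to 81.0 CPM after DT. Of the 7 tested, 3 were called higher and 0 lower (0.555% and 0.159% of all genes tested), and 1 of the 7 had reached the filter only through its DT libraries. Ependymal markers (8 genes) summed to 304 to 358 CPM after PBS and 387 to 638 CPM after DT, with the highest sum in DT replicate 3, and 0 were called.

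Choroid plexus markers (8 genes) summed to 98.6 to 1106 CPM after PBS and 709 to 1916 CPM after DT, highest in DT replicate 1. These ranges overlapped. The sums of fibroblast markers (210 to 295 CPM after PBS, 203 to 250 CPM after DT) overlapped, and those of endothelial markers (795 to 1249 and 658 to 783 CPM) were lower after DT in all libraries. Sums of oligodendrocyte precursor markers (223 to 288 CPM after PBS, 186 to 220 CPM after DT) were also lower after DT without overlap. Of the 8 endothelial and 6 precursor markers, 0 were called, and *Gpr17* was the only precursor marker whose groups did not overlap. The monocyte sum (98.8 to 126 and 86.2 to 93.4 CPM) was lower without overlap too, but nearly all of it came from *Vcan*. The mean of that gene was 111 CPM in the PBS group against 88.8 CPM in the DT group. *Ly6c2*, the other monocyte marker tested, overlapped between the groups (limma adjusted p = 0.816), and 3 of the 6 markers were without a read. A fall in monocyte RNA was therefore not shown. Sums of oligodendrocyte, neuron and pericyte markers overlapped, at 0.829, 0.961 and 0.954 times the PBS means. Microglia markers summed to 219 to 242 CPM after PBS and 130 to 151 CPM after DT. The part of these cell types in the S100 differences was not tested.

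**Figure D5:**
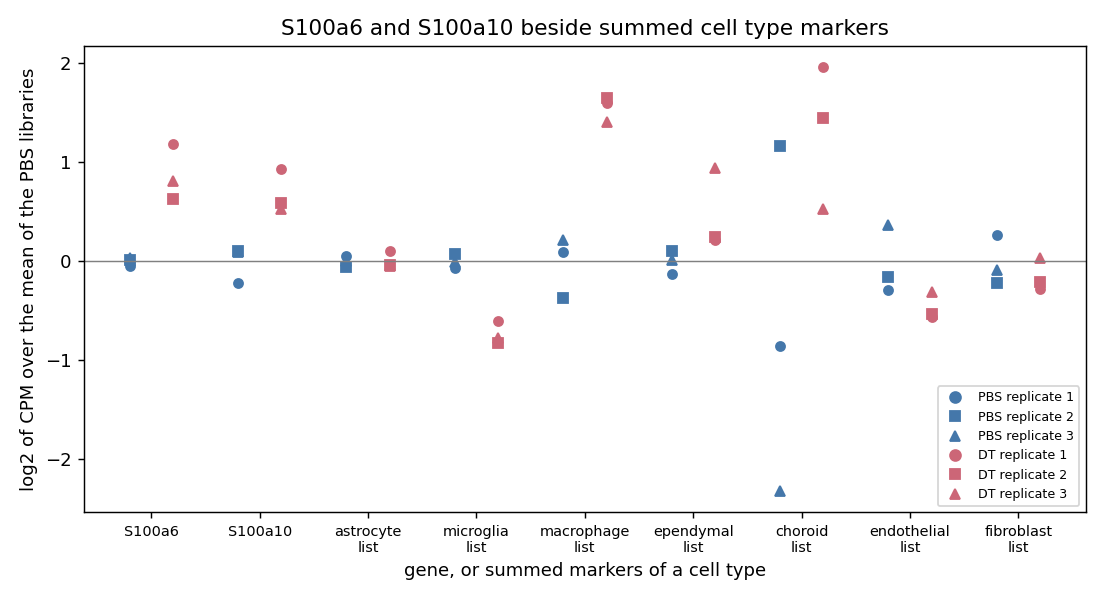
Log2 of CPM over the mean of the PBS libraries, for *S100a6*, *S100a10* and summed markers of 7 cell types, with 1 point per library. DT replicate 1 is highest for both S100 genes and for the choroid (1916 CPM) and astrocyte (68166 CPM) lists. Macrophage sums are higher in all DT libraries, and astrocyte and choroid sums overlap between the groups.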

How the data were processed

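Per the paper's methods, the authors trimmed reads with Trim Galore 0.5.0, mapped them to mm10 with HISAT2 2.1.0 using strand information, removed ribosomal reads with BEDTools 2.25.0, and quantified genes with StringTie 1.3.5 and edgeR 3.24.3. The authors deposited TPM and a CPM signal, scaled to library sizes with TMM factors, for each library. Columns of log fold change, q-value and p-value, which the authors deposited from their own comparison, were not used. Each CPM value was a whole number of reads (100% within 0.05 of a read), and these reads were recovered. The design had assumed plain CPM.

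The groups were compared with limma 3.58.1 in R 4.3.3, as two-sided tests of log2(CPM + 0.1) with a trended prior variance and no block, for genes whose mean CPM was 0.5 or more. The named genes are the members, the other S100 genes, annexin and receptor genes, called genes of the partner and EF-hand lists, and the 3 nearest profiles of each called member. Other genes named were chosen after their values had been seen. Members and lists were chosen with earlier results of these data known. Alternatives were edgeR 4.0.16 and DESeq2 1.42.0 on the recovered reads, other pseudocounts, filters, units and normalization, the replicate block and each library left out. The fit was tested on simulated data. P-values measure the spread between pools of 2 mice.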

Additional observations from a re-analysis of the deposited data

How the results depend on the processing

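All 8 tested S100 genes kept a log2 change above 0 in each of the 17 alternatives in which they were tested. The number of S100 genes called higher was 0 with no filter and with no variance trend, 3 with edgeR's exact test (*S100a6*, *S100a10* and *S100a16*) and 4 with DESeq2, which added *S100a13*. Leaving out 1 library gave 0 to 1, with 0 without PBS replicate 1, 2 or 3 and without DT replicate 1 or 3. With the replicate block it was 1, and that gene was *S100a16* (adjusted p = 0.0384, range over alternatives 0.00303 to 0.284) and not *S100a6* (adjusted p = 0.0505, range 5.34e-06 to 0.139). Deviations of same-numbered libraries correlated at 0.115, 0.0105 and 0.118, and those of differently numbered libraries at -0.124 to 0.0115. The labels do not say whether the numbers pair the libraries, and these values do not settle it. Replicates 1 and 3 correlated best with their own number, while DT replicate 2 was at 0.0105 with PBS replicate 2 and 0.0115 with PBS replicate 3. The block gave 79 genes higher and 30 lower over all genes.

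Over all genes, 84 were higher and 24 lower. Without the variance trend, 35 were higher and 11 lower, with edgeR's exact test 191 and 72, and with DESeq2 227 and 98. Leaving out 1 library gave 39 to 72 higher, with 39 without DT replicate 1 and 40 without DT replicate 2, and 9 to 20 lower, with 11, 9 and 10 without PBS replicates 1, 2 and 3 and 10 without DT replicate 2. Of the other EF-hand genes, DESeq2 called 1 higher and 1 lower. The cause of these shifts was not tested. Fits that left out 1 library also had fewer samples. The log2 ratio of the summed S100 level was 0.34 in TPM, 0.30 to 0.39 when 1 library was left out and 0.28 in CPM. Depth limits *S100a4*, *S100a8* and *S100a9* most.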
